A study of Mus musculus with 2 samples.

Results

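Keratins are the intermediate filament proteins of epithelia. In the enamel organ, the epithelium that forms tooth enamel, 9 keratin genes were followed: Krt5, Krt14, Krt15, Krt17, Krt19, Krt8, Krt18, Krt73 and Krt75. They were taken by symbol from the 39 keratin genes in the deposited table of 19626 genes, and the other 30 keratins are given more briefly. The 9 genes held 97.4% of all keratin counts in the ameloblast lineage. Single cells were sequenced with 10x Genomics 3′ chemistry from the cervical loop of the mouse lower incisor at postnatal day 20, which was collected with its mesenchyme and some enamel. The Memo1-mutant library came from 1 mouse labelled Memo1;K14CRE, in which Cre is driven by a keratin 14 promoter, and the Control library from 1 mouse labelled Control whose genotype is not given further. Because a mouse incisor keeps growing, 1 tooth holds every stage of the lineage. With 1 mouse per group the spread between mice is unknown, no test can be made, and every difference given here is one between 2 libraries.

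Each keratin filament is built from pairs of a type I and a type II keratin, so the genes are read as partners. Krt5 (type II) and Krt14 (type I) form the filaments of basal epithelial cells, Krt15 (type I) marks basal cells and hair follicle stem cells, and Krt17 (type I) is a keratin of epithelial appendages and of injured skin. Krt8 (type II), Krt18 and Krt19 (both type I) are the keratins of simple epithelia. Krt73 and Krt75 are type II keratins of the hair follicle, Krt73 of its inner root sheath and Krt75 of its companion layer. KRT75 has also been found in human enamel. Keratin filaments are anchored to desmosomes and hemidesmosomes and give epithelial sheets their strength.

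The depositors had placed 2303 Memo1-mutant and 2981 Control cells in the ameloblast lineage, 16.7% of the 13820 Memo1-mutant and 30.7% of the 9708 Control cells, in 9 numbered clusters without names. Markers that hold no keratin named cluster 1 outer enamel epithelium or stellate reticulum-like, cluster 3 secretory ameloblast-like, cluster 5 stratum intermedium or papillary layer-like, cluster 6 preameloblast-like and cluster 7 maturation ameloblast-like. Clusters 0, 2, 4 and 8 stayed unnamed. Cluster 6 had 3 of 5 preameloblast markers raised (mean log2 difference 1.91), but also 3 of 5 secretory ameloblast markers (0.76). Cluster 4 had 4 of 5 preameloblast markers raised (1.42) and all 5 markers of cycling cells (1.24). The preameloblast markers are thus not particular to cluster 6. Cluster 0 was shallow and led by Pmch and haemoglobin genes, cluster 2 was led by Pi15, Igfbp2 and Igfbp5, cluster 4 was led by the preameloblast markers Col22a1 and Vwde but also by 4 haemoglobin genes, and cluster 8 held Memo1-mutant cells only. Krt18 in cluster 1, Krt15 in cluster 2, and Krt73 and Krt17 in cluster 5 stood among the 10 leading genes of their cluster, so their place there is a description. The lineage held 24230793 counts in the Memo1-mutant library and 32299685 in the Control library, where a count is 1 unique molecule (UMI). The libraries shared 139 cell barcodes. Memo1 itself stood at 17.7 CPM in the Memo1-mutant lineage and 20.3 CPM in the Control lineage, where CPM is a gene's counts per 1000000 counts of the same cells. A 3′ count does not grow with the length of the transcript. How well the transcripts of each keratin were captured and assigned was not measured, so a ratio of 2 keratins is one of counts. Reads from outside the deleted part count too, so Memo1 is no check of the deletion.

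Type I and type II genes sit in separate clusters of the genome (GRCm38, GENCODE M21). Krt15 lies at chr11:100131758-100135928, Krt19 at chr11:100140810-100148665, Krt14 at chr11:100203162-100207548 and Krt17 at chr11:100256217-100261029, all on the minus strand. Krt75 lies at chr15:101563345-101573904, Krt5 at chr15:101707070-101712898, Krt73 at chr15:101793308-101802346 and Krt8 at chr15:101996698-102004482, also on the minus strand. Krt18 is the exception among the type I genes, at chr15:102028180-102032027 on the plus strand and next to its partner Krt8. In the last 500 bases of the transcripts, which 3′ reads cover, 9.53% of the 50-base windows of Krt14 also occur in Krt17 or Krt16. The same share of Krt17 windows, 9.53%, occurs in Krt14 or Krt16, so a small part of these reads cannot be told apart by sequence. Krt18 shared 1.11% of its windows with the pseudogene Gm5200, and the other 6 genes shared none.

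Over the whole lineage the 9 keratins together were lower in the Memo1-mutant library. They summed to 3717 CPM in Memo1-mutant cells, against 4798 CPM in Control cells, a ratio of 0.775 (0.768 to 0.781). Intervals are 95% and cover counting error only. The sum depended on how cells were weighted: with each cell counted alike, as the mean of per-cell CPM, the ratio was 1.01, and with the Memo1-mutant clusters weighted by their share of counts in the Control lineage it was 0.909. By cluster the sum was highest in cluster 5, at 9649 CPM in Memo1-mutant and 11592 CPM in Control cells, and in cluster 0, at 9968 CPM in Memo1-mutant and 8016 CPM in Control cells. It was lowest, among clusters of both libraries, in the secretory ameloblast-like cluster 3, at 1286 CPM in Memo1-mutant and 1140 CPM in Control cells. The sum of the lineage hid large differences between single keratins, shown in the plot of ratios by cluster. A keratin is said to pass when it differed at least 2-fold either way with an interval that left out 1 and had at least 20 counts over both libraries. In the whole lineage Krt73 passed as higher and Krt15, Krt19, Krt8, Krt18 and Krt75 as lower, 6 of 9 keratins. Of all 14019 genes with enough counts, 8.04% passed, 4.32% as higher and 3.72% as lower. The median log2 ratio was −1.11 for the 9 keratins and −0.03 for all genes. In every alternative run Krt15 was lower over the lineage, with ratios of 0.154 to 0.426, and Krt73 was higher, from 1.54 with stricter cell limits to 5.48 as a mean of per-cell CPM. Krt75 came to 0.76 as a mean of per-cell CPM. At the Control mix of clusters the ratio was 0.404 for Krt15, 0.321 for Krt19 and 2.8 for Krt73, all still beyond 2-fold, but 0.749 for Krt8, 0.852 for Krt18 and 0.6 for Krt75.

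By cluster, 11 of 54 keratin and cluster pairs with enough counts passed, 3 higher and 8 lower, and 18 further pairs had under 20 counts. In cluster 0, 1 of 8 keratins passed, Krt73 as higher, against 8.13% of all genes (5.44% higher, 2.7% lower). In cluster 1, 2 of 9 passed, Krt15 and Krt19 as lower, against 7.73% of all genes (4.29% higher, 3.44% lower). In cluster 3, 1 of 5 passed, Krt15 as lower, against 7.55% (5.77% higher, 1.78% lower). In cluster 5, 2 of 8 passed, Krt73 as higher and Krt75 as lower, against 7.3% (6.55% higher, 0.751% lower), so few genes of any kind were lower there. In cluster 6, 2 of 6 passed, Krt18 as higher and Krt15 as lower, against 9.37% (8.35% higher, 1.03% lower). In cluster 7, 3 of 4 passed, Krt14, Krt17 and Krt8, all as lower, against 14.8% (4.86% higher, 9.98% lower). None of 8 passed in cluster 2, where 7.99% of all genes did (6.26% higher, 1.73% lower), and none of 6 in cluster 4, where 4.58% did (1.7% higher, 2.88% lower). Just inside the limit was Krt18 in cluster 6 at 2.26, and just outside it were Krt17 in cluster 6 at 1.99, Krt15 in cluster 0 at 0.5, which is just above 0.5 before rounding, and Krt15 in cluster 2 at 0.512. The median log2 ratio of all genes was 0.24 in cluster 5, 0.22 in cluster 6, 0.16 in cluster 2, 0.14 in cluster 3 and within 0.1 of 0 in the other 4 clusters, so a ratio of 1 is not the middle of all genes there.

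**Figure D1:**
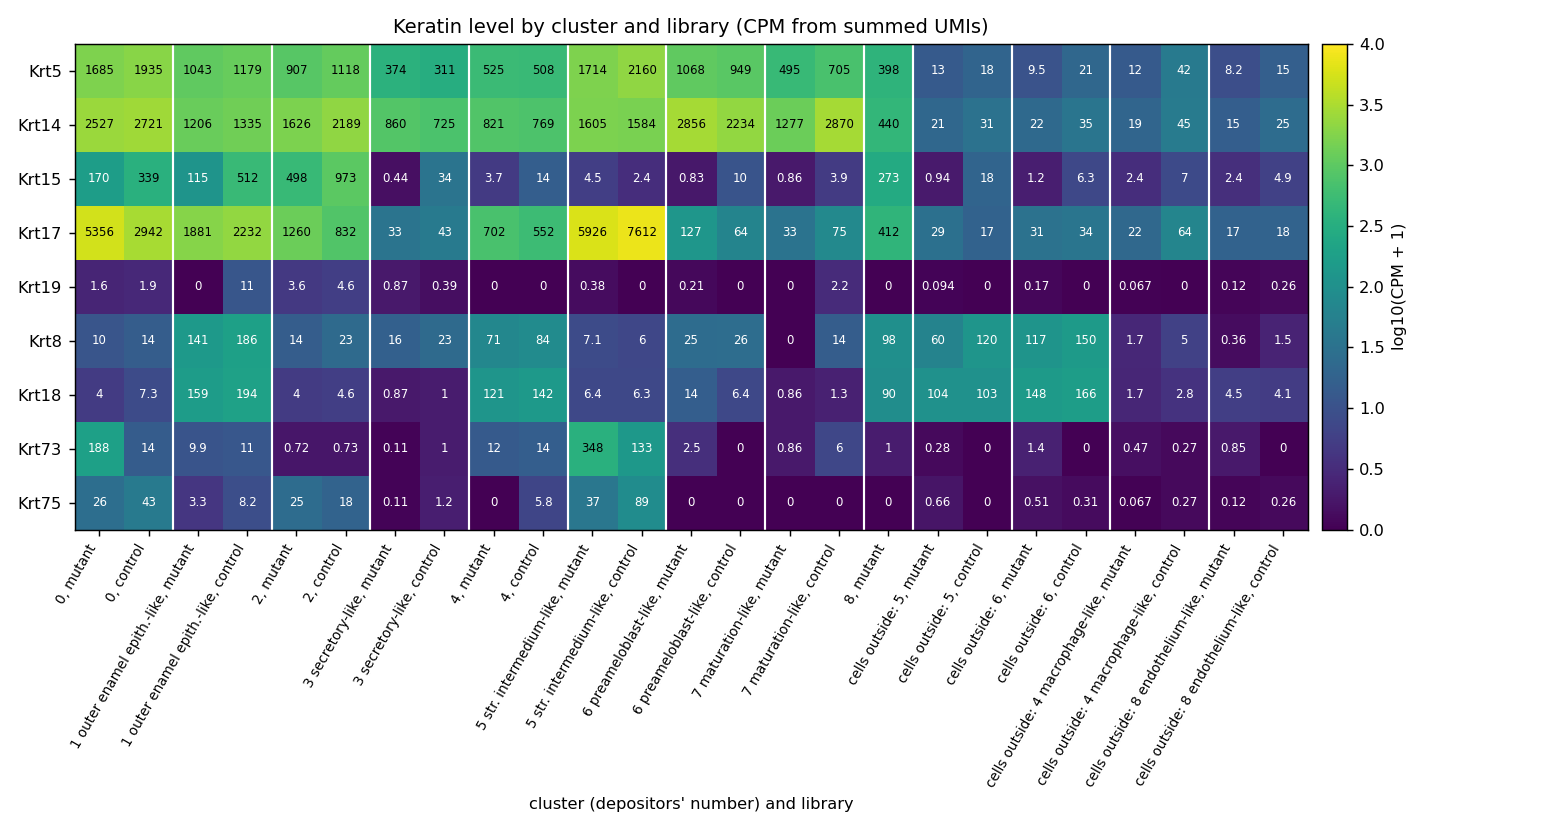
Level of each of the 9 keratins (rows) in each lineage cluster and in 4 clusters outside the lineage (columns, Memo1-mutant left of Control), printed in CPM and coloured as log10(CPM + 1). Krt5 and Krt14 fill all lineage clusters, Krt17 peaks in clusters 5 and 0, Krt15 in cluster 2, Krt73 and Krt75 in clusters 5 and 0, and Krt8 and Krt18 reach clusters 5 and 6 outside the lineage.

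Krt5 and Krt14, the basal pair, were found in every lineage cluster. Krt14 was highest in cluster 6 in the Memo1-mutant library, at 2856 CPM against 2234 CPM in Control, and highest in cluster 7 in the Control library, at 1277 CPM in Memo1-mutant and 2870 CPM in Control cells. Among the 8 clusters held by both libraries it was lowest in clusters 3 and 4, at 860 and 821 CPM in Memo1-mutant cells and 725 and 769 CPM in Control cells. Krt5 was highest in cluster 5, at 1714 CPM in Memo1-mutant and 2160 CPM in Control cells, and lowest of those 8 in cluster 3, at 374 CPM in Memo1-mutant and 311 CPM in Control cells. In both libraries the secretory ameloblast-like cluster thus held the least Krt5, and cluster 8, the one without Control cells, was close to it with 398 CPM of Krt5 and 440 CPM of Krt14.

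The balance between the partners changed along the lineage more than between the libraries. Krt5 gave 1.07 counts per Krt14 count in cluster 5 of the Memo1-mutant library (1.02 to 1.11) and 1.36 in Control (1.32 to 1.41), the highest values among the 8 shared clusters. In cluster 1 it gave 0.865 in Memo1-mutant and 0.883 in Control cells. In cluster 3 it gave 0.435 in Memo1-mutant and 0.43 in Control cells. Ameloblast-like clusters 3, 6 and 7 were therefore the ones richest in Krt14 relative to Krt5, with 0.374 in Memo1-mutant and 0.425 in Control cells in cluster 6. As a fold between the libraries, cluster 7 was the one where they stood farthest apart, at 0.387 (0.351 to 0.427) in Memo1-mutant and 0.246 (0.232 to 0.259) in Control cells.

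In cluster 7, the maturation ameloblast-like cells, Krt14 fell short of the Control level by more than 2-fold. There were 1485 counts in 78 Memo1-mutant cells and 6647 counts in 187 Control cells, a ratio of 0.445 (0.42 to 0.471), against 0.702 (0.637 to 0.772) for its partner Krt5. This Krt14 difference held in all 11 alternatives run, with ratios between 0.396 and 0.498. The alternatives with no count minimum and with a fold of at least 1.5 only loosened the rule, so a passing pair could not fail them. Krt14 differed little elsewhere, with ratios from 0.743 in cluster 2 to 1.28 in cluster 6. Krt5 stayed between 0.793 in cluster 5 and 1.2 in cluster 3 outside cluster 7. Markers of any epithelium (Epcam, Cdh1, Dsp, Perp and Trp63) summed to 414 CPM in Memo1-mutant and 618 CPM in Control cells of cluster 7, with none of the 5 at 0, and 14.8% of all genes passed there. Their part in the Krt14 difference was not tested.

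**Figure D2:**
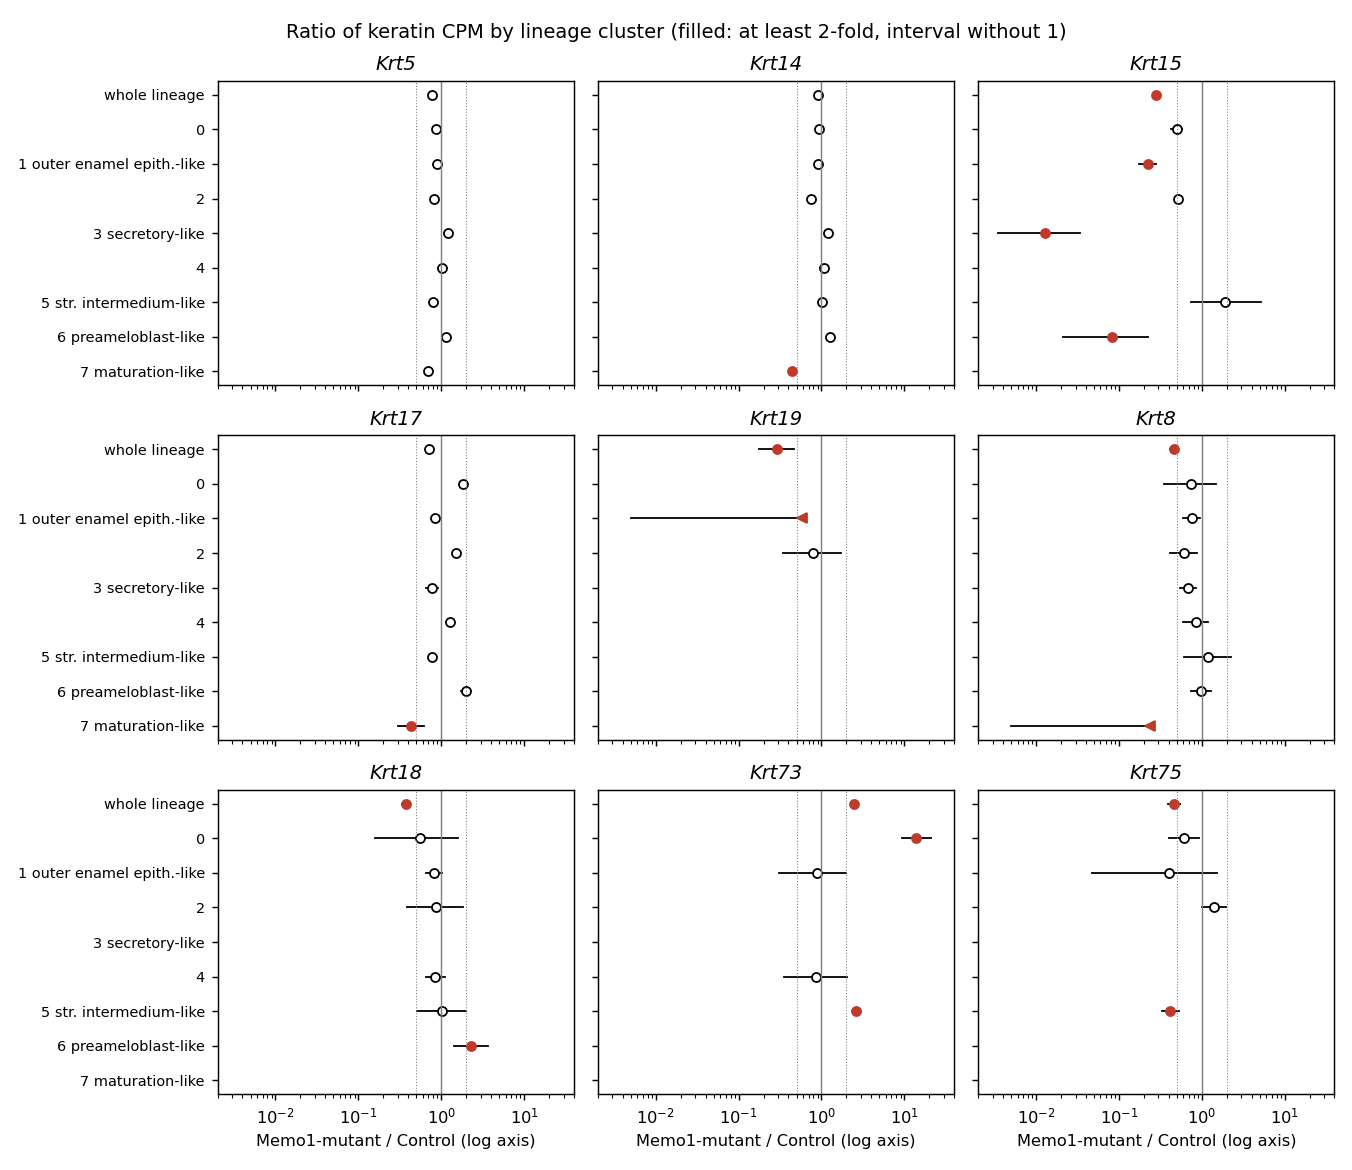
Ratio of CPM, Memo1-mutant over Control, for each keratin in the whole lineage and in the 8 clusters with cells of both libraries (log axis, bars are 95% counting intervals, filled points passed 2-fold, arrowheads mark the upper bound where the Memo1-mutant library had 0 counts, pairs with under 20 counts are left out). Krt5 and Krt14 stay near 1 outside cluster 7, Krt15 lies to the left in clusters 1, 3 and 6, and Krt73 lies to the right in clusters 0 and 5.

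Krt15, a type I keratin of basal and stem cells, had the lowest ratio of the members in summed counts over the lineage, 0.278. The sparse Krt19 was close, at 0.293 (0.176 to 0.469), and at the Control mix of clusters Krt19 was the lower, at 0.321 against 0.404. Over the lineage Krt15 stood at 80.5 CPM in Memo1-mutant and 289 CPM in Control cells, 3.59-fold lower (3.42 to 3.78). At the Control mix of clusters Krt15 was still 2.47-fold lower. It was concentrated in cluster 2, at 498 CPM in Memo1-mutant and 973 CPM in Control cells, followed by cluster 1, cluster 0 and the Memo1-mutant cluster 8. In clusters 3 to 7 it was at most 4.5 CPM in Memo1-mutant cells and 33.7 CPM in Control cells. In all 3 clusters rich in Krt15 the Memo1-mutant level was lower.

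Among clusters 0, 1 and 2, which were rich in Krt15, the ratio was lowest in cluster 1, the outer enamel epithelium or stellate reticulum-like cells. Krt15 had 70 counts in 75 Memo1-mutant cells, against 2990 counts in 495 Control cells, or 115 CPM against 512 CPM, a ratio of 0.224 (0.175 to 0.284). Among cells thinned to 1000 UMIs, 7.69% of 65 Memo1-mutant cells had a Krt15 UMI (2.54 to 17, exact Clopper-Pearson), against 30.7% of 479 Control cells (26.6 to 35). Fewer cells of the cluster thus held the transcript, before thinning 20% of Memo1-mutant and 63.4% of Control cells. In the endothelium-like cluster 8 outside the lineage, where Krt15 should be absent, 1.86% of Memo1-mutant and 4.63% of Control cells had a Krt15 UMI before thinning, at median depths of 10870 UMIs in Memo1-mutant and 12518 UMIs in Control cells, while lineage cluster 1 had 7986 UMIs in Memo1-mutant and 9878 UMIs in Control cells. Joining the Memo1-mutant cells of clusters 1 and 8, a choice made after seeing the data, gave a ratio of 0.416 (0.371 to 0.465), and the mean of per-cell CPM in cluster 1 gave 0.483. The joining put every other member below 1 as well, among them Krt17 at 0.435, Krt5 at 0.546, Krt14 at 0.548, Krt18 at 0.598 and Krt8 at 0.615.

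Outside cluster 1 the Krt15 differences were smaller or rested on few cells. In cluster 0 Krt15 was at 170 CPM in Memo1-mutant and 339 CPM in Control cells, a ratio of 0.5 (0.427 to 0.585), and with each cell thinned to 1000 UMIs the share of cells with a UMI was 7.01% in Memo1-mutant and 13.4% in Control cells. In cluster 2 the ratio was 0.512 (0.482 to 0.544), and the shares were 22.6% of Memo1-mutant and 42.4% of Control cells. In cluster 3 there were 4 counts in Memo1-mutant cells and 259 in Control cells, but 1 Control cell held 64.5% of the Control counts. Without the top cell of each library the ratio was 0.0273 in place of 0.013. In cluster 6 there were 4 counts in Memo1-mutant and 41 counts in Control cells, 46.3% of them in 1 Control cell. Krt15 was thus at 0.437 CPM in Memo1-mutant and 33.7 CPM in Control cells of cluster 3. In cluster 6 it was at 0.827 and 10.1 CPM. The medians of the clusters outside the lineage were 1.48 CPM in Memo1-mutant and 11.4 CPM in Control cells. Cluster 6 stood below both medians, and cluster 3 below that of the Memo1-mutant library only. Doublets were not called, and their part in these values was not tested.

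Krt17, the appendage keratin, was the most abundant member in cluster 5, where it held 61.4% of the 9 keratins' counts in Memo1-mutant and 65.7% in Control cells. Its level there was 5926 CPM in Memo1-mutant and 7612 CPM in Control cells, and 99.4% of Memo1-mutant and 100% of Control cells had at least 1 UMI. At the other end, in the secretory ameloblast-like cluster 3, Krt17 was at 33.3 CPM in Memo1-mutant and 42.8 CPM in Control cells. The endothelium-like cells outside the lineage had 17.2 CPM in Memo1-mutant and 17.7 CPM in Control, below cluster 3 in both libraries. Their median depth was 10870 UMIs in Memo1-mutant and 12518 UMIs in Control, against 32700.5 and 35309 UMIs in cluster 3. The part of free RNA in the Krt17 of cluster 3 was not tested. In the maturation-like cluster 7 it was at 32.7 CPM in Memo1-mutant and 75.1 CPM in Control cells. Over both libraries Krt17 was thus at 832 to 7612 CPM in clusters 0, 1, 2 and 5, and low in clusters 3, 6 and 7. Cluster 4 lay just below the first range, at 702 CPM in Memo1-mutant and 552 CPM in Control cells.

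Between the libraries Krt17 moved in both directions. It was 1.82 times the Control level in cluster 0 (1.76 to 1.89), at 5356 CPM in Memo1-mutant and 2942 CPM in Control cells, and 1.51 times in cluster 2 (1.45 to 1.58), at 1260 CPM in Memo1-mutant and 832 CPM in Control cells. In cluster 6 it was at 127 CPM in Memo1-mutant and 63.7 CPM in Control cells. In cluster 5 it was lower, with a ratio of 0.779 (0.764 to 0.794). None of these passed 2-fold. Over the whole lineage the ratio was 0.716 from summed counts but 1.3 from the mean of per-cell CPM and 1.19 in cells thinned to 1000 UMIs, so the direction of Krt17 in the lineage as a whole depended on how cells were weighted. The passing value in cluster 7, 0.435, did not stand firm: 1 Memo1-mutant cell held 76.3% of the counts, without the top cell of each library the ratio was 0.141, and among cells with at least 1000 UMIs, 500 genes and at most 10% mitochondrial counts it was 1.67 (1.01 to 2.77).

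Krt15 and Krt17, both type I keratins, were found together less often than apart in cluster 0, and in cluster 2 Krt17 was less frequent in cells with Krt15 than in cells without. In cluster 0, 26.2% of 61 Memo1-mutant cells with a Krt15 UMI also had a Krt17 UMI (15.8 to 39.1), against 73.8% of 962 Memo1-mutant cells without Krt15 (70.9 to 76.6). The Control library gave 27.1% of 188 cells with Krt15 (20.9 to 34.1) and 69.7% of 967 cells without (66.7 to 72.6). In cluster 2 the shares were 53.2% with and 84.1% without Krt15 in Memo1-mutant cells, and 72.7% with and 94.5% without in Control cells. In cluster 0 the median depth was 1035 UMIs with and 888 UMIs without Krt15 in Memo1-mutant cells, and 1076 UMIs with and 1094 UMIs without in Control cells. In cluster 2 it was 12988 UMIs with and 14727 UMIs without in Memo1-mutant cells, and 15974 UMIs with and 15799 UMIs without in Control cells, and the part of depth in the shares was not tested. In cluster 1 the shares in Control cells were 91.7% with and 90.6% without Krt15, so most Krt15 cells there also held Krt17. In Memo1-mutant cells of cluster 1 they were 60% of 15 cells with Krt15 (32.3 to 83.7) and 75% of 60 cells without (62.1 to 85.3). The clusters were made from these same cells, and the shares are a description of how the transcripts fall within them.

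**Figure D3:**
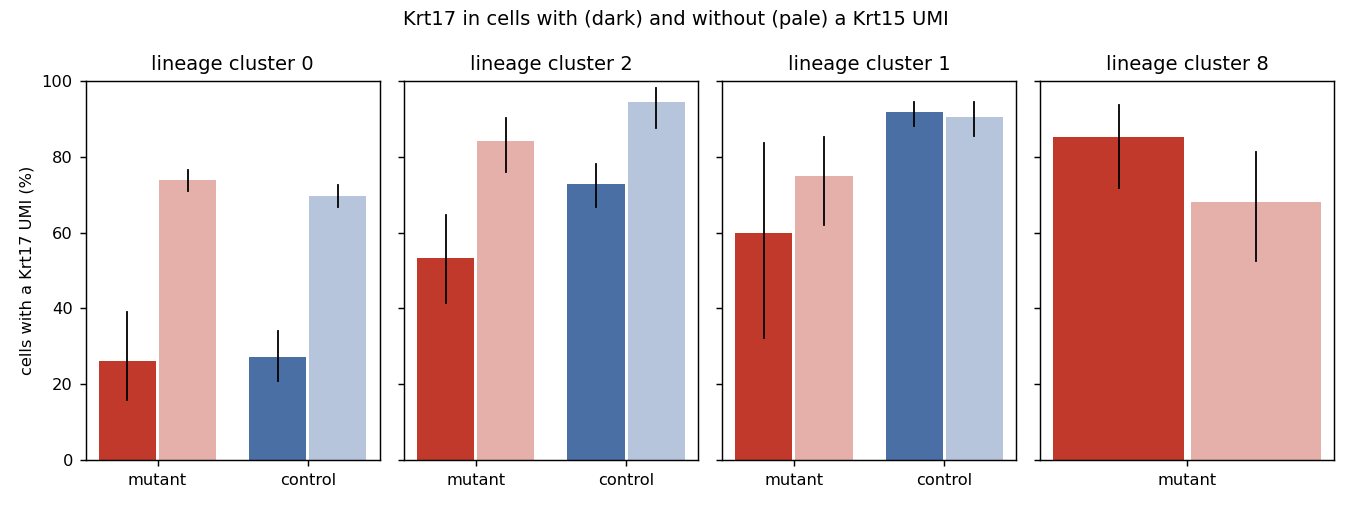
Percent of cells with at least 1 Krt17 UMI, among cells with a Krt15 UMI (dark bars) and without one (pale bars), in lineage clusters 0, 2, 1 and 8, with the Memo1-mutant library in red and left of Control in blue (lines are exact 95% intervals, all UMIs of each cell). In clusters 0 and 2 the dark bars are lower than the pale bars in both libraries. In cluster 1 they are level in Control, at 91.7% and 90.6%, and at 60% and 75% in Memo1-mutant cells with overlapping intervals.

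Krt8 and Krt18, the simple-epithelium pair, were both highest in clusters 1, 4 and 8 of the lineage. In cluster 1 Krt8 was at 141 CPM in Memo1-mutant and 186 CPM in Control cells, and Krt18 at 159 CPM in Memo1-mutant and 194 CPM in Control cells. In cluster 4 Krt8 was at 71 CPM in Memo1-mutant and 84.3 CPM in Control cells, and Krt18 at 121 CPM in Memo1-mutant and 142 CPM in Control cells. In cluster 8 of the Memo1-mutant library they were at 97.8 and 89.7 CPM. Erythroid markers summed to 23113 CPM in Memo1-mutant and 300 CPM in Control cells of cluster 4, with none of the 5 at 0, and their part in these levels was not tested. In cluster 1, 64.5% of Memo1-mutant cells with a Krt8 UMI also had Krt18, against 25% of those without Krt8, and in Control cells the shares were 65.5% and 34.6%, though Memo1-mutant cells with Krt8 were also deeper (median 13130 against 1888 UMIs). In cluster 8 no such difference was seen. Krt18 was in 35.4% of 48 cells with Krt8 (22.2 to 50.5) and 44.2% of 43 cells without (29.1 to 60.1), with intervals that overlap. Over 17 profiles, 1 per lineage cluster and library, the log2 levels of Krt8 and Krt18 had a Pearson r of 0.92, the highest of the 36 pairs of members. Profiles of 1 library share that library and are not independent.

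The secretory ameloblast-like cluster 3 held Krt8 with hardly any Krt18. There were 147 Krt8 counts and 8 Krt18 counts in Memo1-mutant cells, 18.4 to 1 (9.08 to 43.4), and 180 and 8 counts in Control cells, 22.5 to 1 (11.2 to 52.9). In cluster 1 the same ratio was 0.887 in Memo1-mutant and 0.957 in Control cells. Krt8 was spread over 27.3% of Memo1-mutant and 46.6% of Control cells in cluster 3, with at most 6 counts in any cell. Its level of 16.1 CPM in Memo1-mutant and 23.4 CPM in Control cells stood above endothelium-like cells, which had 0.363 CPM in Memo1-mutant and 1.54 CPM in Control. The ratio between the libraries was 0.685 (0.547 to 0.857) and did not pass 2-fold.

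Between the libraries, Krt8 and Krt18 were lower over the lineage as a whole but less so within most clusters. Krt8 was 2.16-fold lower (1.97 to 2.38) and Krt18 2.63-fold lower (2.35 to 2.94) over all lineage cells. At the Control mix of clusters the same figures came to 1.34-fold and 1.17-fold. Cluster 1, which held most of both transcripts in the Control lineage, had 75 Memo1-mutant and 495 Control cells, and inside it the ratios were 0.76 (0.603 to 0.947) for Krt8 and 0.82 (0.66 to 1.01) for Krt18. In cluster 7 Krt8 had 0 counts in 78 Memo1-mutant cells and 33 counts in 187 Control cells, 30.3% of them in 1 cell, so that Krt8 was at least 5.52-fold lower against a floor of 3 counts in the Memo1-mutant library, while the exact interval reaches down to 4.24-fold. In cluster 6 Krt18 was higher, with 70 counts in Memo1-mutant and 26 counts in Control cells, a ratio of 2.26 (1.42 to 3.7) that was 1.94 after TMM scaling, while Krt8 there was level at 25 CPM in Memo1-mutant and 25.6 CPM in Control cells. Markers of mesenchyme (Col1a1, Col1a2, Col3a1, Dcn, Lum and Pdgfra) summed to 479 CPM in Memo1-mutant and 86 CPM in Control cells of cluster 6, with none of the 6 at 0. Outside the lineage Krt18 was at 104 CPM in Memo1-mutant and 103 CPM in Control cells of all-cell cluster 5. In all-cell cluster 13, which the mesenchyme markers named, it was at 0.862 CPM in Memo1-mutant and 0.394 CPM in Control cells. The part of mesenchyme in the Krt18 difference was not tested.

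Krt8 and Krt18 were also the members found outside the enamel organ. Of all their counts in both libraries, 46.4% of Krt8 and 34.5% of Krt18 lay in the lineage, against 91.8% to 96.1% for the other 7 keratins. They were high in all-cell clusters 5 and 6, led by Lypd1, Scube1 and Twist2 in cluster 5 and by Smoc2, Thbs4 and Dlk1 in cluster 6. In cluster 6 outside the lineage Krt8 was at 117 CPM in Memo1-mutant and 150 CPM in Control cells, and Krt18 at 148 CPM in Memo1-mutant and 166 CPM in Control cells. In cluster 5 Krt8 was at 60.5 CPM in 1352 Memo1-mutant cells and 120 CPM in 92 Control cells, and Krt18 at 104 CPM in Memo1-mutant and 103 CPM in Control cells. Epithelial markers were low in these cells. Their mesenchyme markers summed to 2735 and 1814 CPM in Memo1-mutant cells of clusters 5 and 6, and to 2177 and 1633 CPM in Control cells. Their epithelium markers came to 43 and 26.4 CPM in Memo1-mutant cells and 31.4 and 38.7 CPM in Control cells, and endothelium-like cells had 15.6 CPM in Memo1-mutant and 18.5 CPM in Control. Thinned to 1000 UMIs, 11.3% of Memo1-mutant and 12.3% of Control cells of cluster 6 had a Krt18 UMI, against 0.338% of Memo1-mutant and 0% of Control endothelium-like cells at the same depth. None of the 259 Control cells had one, a share whose exact interval reaches 1.41%.

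**Figure D4:**
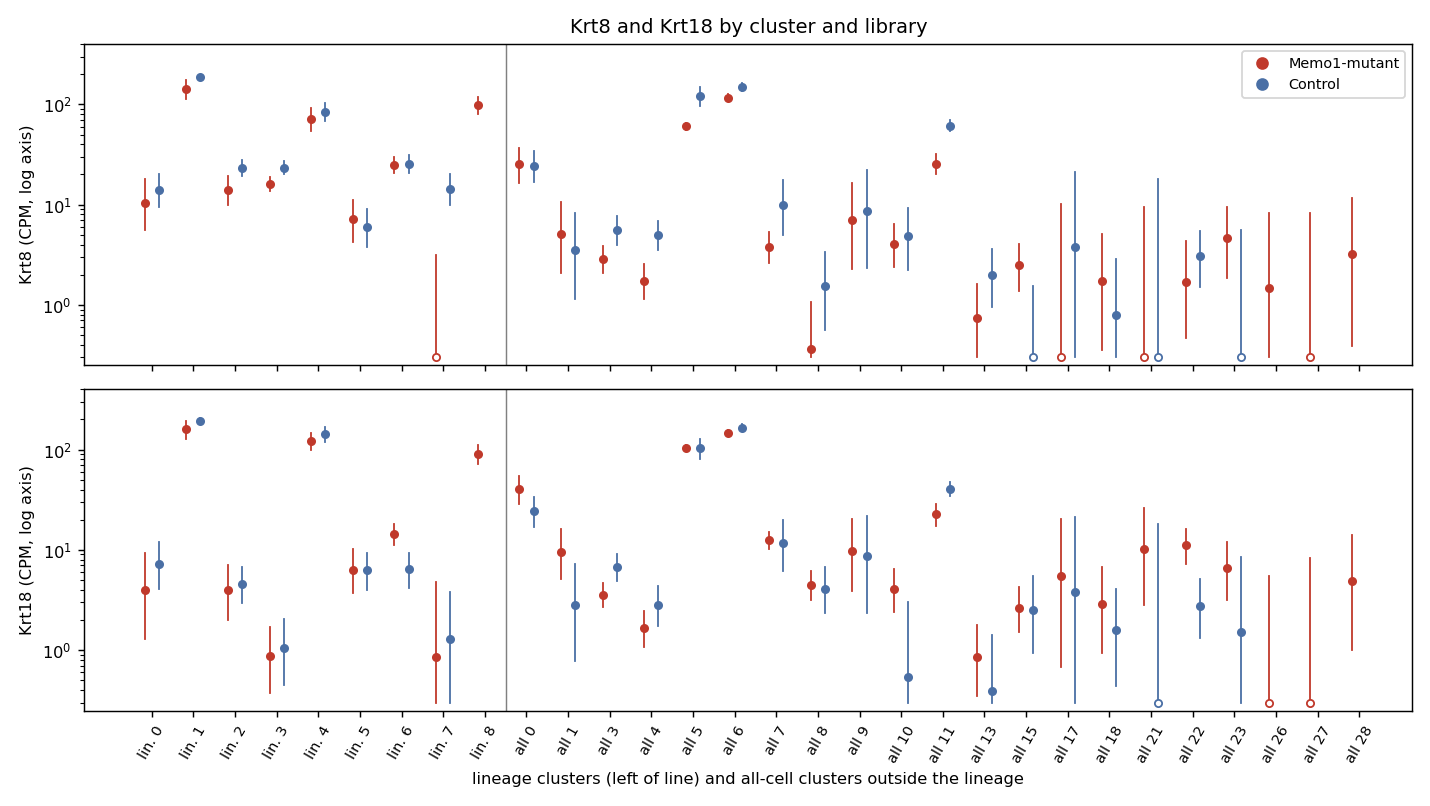
Krt8 (top) and Krt18 (bottom) in CPM (log axis) in each lineage cluster, left of the grey line, and in each all-cell cluster outside the lineage with at least 50 cells, right of it, with Memo1-mutant in red and left of Control in blue (bars are 95% Poisson intervals, open points at the bottom are 0 counts). Both genes reach 100 CPM or more in lineage cluster 1 and in all-cell cluster 6, and lineage cluster 3 holds Krt8 at 16.1 CPM in Memo1-mutant and 23.4 CPM in Control with Krt18 near 1 CPM.

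Krt19, the smallest type I keratin, was nearly absent. It had 22 counts in the Memo1-mutant lineage and 100 counts in the Control lineage. Of the Control counts, 63 lay in cluster 1, in 2.83% of its cells, against 0 counts in the 75 Memo1-mutant cells of that cluster, at least 2.19-fold lower against a floor of 3 counts, while the exact interval reaches down to 1.73-fold. As a share of cells, 0 of 75 allows up to 4.8%, so a lower share was not detectable at this depth. In clusters 4 and 6 together 1 count was seen over both libraries. Krt8 and Krt18 in cluster 1 were therefore far above Krt19 in either library.

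Since Krt8 and Krt18 are neighbours on chromosome 15 and moved together over the clusters, their promoters are shown. The sequences are RefSeq's for GRCm38.p6, from 250 bases before to 50 bases after the gene start, 5′ to 3′ on the gene's own strand, at chr15:102004293-102004592 (minus strand) for Krt8 and chr15:102027966-102028265 (plus strand) for Krt18. Capitals mark the 2 motifs found, TATAAA on either strand in Krt8, where TTTATA and TATAAA overlap, and the AP-2 motif GCCNNNGGC in Krt18.
Krt8: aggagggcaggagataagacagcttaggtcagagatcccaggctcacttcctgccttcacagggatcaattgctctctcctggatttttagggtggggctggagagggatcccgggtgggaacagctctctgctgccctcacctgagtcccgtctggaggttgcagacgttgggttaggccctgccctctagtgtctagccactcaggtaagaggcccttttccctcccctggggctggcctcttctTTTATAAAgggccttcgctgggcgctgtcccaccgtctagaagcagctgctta
Krt18: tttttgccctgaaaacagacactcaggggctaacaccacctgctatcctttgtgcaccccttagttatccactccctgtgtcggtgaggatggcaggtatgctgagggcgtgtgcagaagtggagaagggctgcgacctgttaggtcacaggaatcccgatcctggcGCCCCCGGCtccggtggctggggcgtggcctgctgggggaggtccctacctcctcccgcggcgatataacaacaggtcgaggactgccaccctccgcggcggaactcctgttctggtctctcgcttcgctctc
Counted from RefSeq's start, the Krt8 match began 3 bases before it and the Krt18 match 83 bases before it. For both genes this start lies inside the GENCODE bounds given above, so the positions do not refer to those bounds. Among 32851 promoters of the same length, 13.6% held TATAAA and 16.6% held GCCNNNGGC on either strand, so both motifs are common. The AP-1 motif TGANTCA, found in 7.81% of all promoters, was in none of the 6 keratin promoter windows at hand, those of Krt5, Krt14, Krt8, Krt18, Krt73 and Krt75. The Krt14 window, at chr11:100205981-100206280, lies inside the gene as located above, so it does not cover the start of that gene. A match is a description of the letters only.

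Krt73 and Krt75, the hair follicle keratins, were found mainly in cluster 5, the stratum intermedium or papillary layer-like cells, and in cluster 0, and they differed between the libraries in opposite directions. In cluster 5 Krt73 was at 348 CPM in Memo1-mutant and 133 CPM in Control cells, a ratio of 2.61 (2.34 to 2.92). Krt75 was at 37.1 CPM in Memo1-mutant and 88.7 CPM in Control cells, a ratio of 0.418 (0.331 to 0.525). Krt73 thus had more counts than Krt75 in both libraries, by 9.38 counts to 1 in Memo1-mutant cells (7.62 to 11.7) and by 1.5 to 1 in Control cells (1.31 to 1.73). Thinned to 1000 UMIs, 20.7% of 174 Memo1-mutant cells (14.9 to 27.5) and 7.11% of 211 Control cells (4.03 to 11.5) had a Krt73 UMI. For Krt75 the shares were 5.17% of Memo1-mutant (2.39 to 9.59) and 8.53% of Control cells (5.13 to 13.1), with intervals that overlap. Endothelium-like cells gave 0.169% in Memo1-mutant and 0% in Control for Krt73 at the same depth.

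In cluster 0 the Krt73 difference was larger. There were 234 counts in 1023 Memo1-mutant cells, against 28 counts in 1155 Control cells, or 188 CPM against 13.6 CPM, a ratio of 13.8 (9.31 to 21.2). Krt75 had 33 counts in Memo1-mutant and 88 counts in Control cells, a ratio of 0.62 (0.402 to 0.935), so Krt73 outnumbered Krt75 by 7.09 to 1 in Memo1-mutant cells, against 0.318 to 1 in Control cells. No single cell carried the result: the top cell held 6.84% of the Memo1-mutant counts, and 9.78% of Memo1-mutant and 1.82% of Control cells had a Krt73 UMI. Of the Memo1-mutant cells with Krt73, 96% also had Krt17, against 68.3% of those without. This ratio passed in all 11 alternatives, between 8.78 and 20.8, though those that only loosened the rule could not fail. Markers of other cells also differed in this shallow cluster: mesenchyme markers summed to 1587 CPM in Memo1-mutant and 807 CPM in Control cells and macrophage markers to 860 CPM in Memo1-mutant and 431 CPM in Control cells, with none at 0, and haemoglobin and Alas2 to 6270 CPM in Memo1-mutant and 15871 CPM in Control cells. Their part in the result was not tested. Krt73 itself was at 0.469 CPM in Memo1-mutant and 0.27 CPM in Control macrophage-like cells outside the lineage, and its highest level in any outside cluster was 8.33 CPM in Memo1-mutant and 8.49 CPM in Control cells.

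Both differences in cluster 5 moved with the choice of cells. With the stricter cell limits Krt73 fell to a ratio of 1.66 (1.44 to 1.92), and Krt75 came to 0.577 (0.243 to 1.28) in thinned cells and 0.523 as a mean of per-cell CPM. In cluster 2, where Krt73 was nearly absent, Krt75 was at 24.6 CPM in Memo1-mutant and 17.5 CPM in Control cells, a ratio of 1.41 (1.01 to 1.94), so Krt75 was not lower everywhere. Within cluster 5 the pair was not found in the same cells more than apart, since 27.7% of Memo1-mutant cells with Krt73 and 28.8% of those without had Krt75, and in Control cells the shares were 44.6% and 39.7%.

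The promoters of Krt73 and Krt75 are shown because the genes share a gene cluster and a cell type but differed in opposite directions. They are RefSeq's for GRCm38.p6 at chr15:101802311-101802610 and chr15:101573855-101574154, both on the minus strand and written 5′ to 3′ as above. Capitals mark TATAAA in Krt73, 30 bases before the start, and the GC box GGGCGG in Krt75, read on the other strand as CCGCCC, 52 bases before the start.
Krt73: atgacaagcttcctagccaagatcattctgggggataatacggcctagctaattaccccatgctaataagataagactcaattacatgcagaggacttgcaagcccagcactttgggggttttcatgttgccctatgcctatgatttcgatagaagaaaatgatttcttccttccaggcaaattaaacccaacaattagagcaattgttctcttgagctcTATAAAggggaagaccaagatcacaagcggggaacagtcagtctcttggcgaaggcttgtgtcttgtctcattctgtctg
Krt75: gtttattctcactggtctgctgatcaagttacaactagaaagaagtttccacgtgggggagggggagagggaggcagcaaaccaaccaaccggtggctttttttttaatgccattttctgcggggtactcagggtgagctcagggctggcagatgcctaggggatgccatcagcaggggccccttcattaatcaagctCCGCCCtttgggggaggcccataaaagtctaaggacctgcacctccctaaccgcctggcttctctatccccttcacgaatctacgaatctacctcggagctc
A GC box was found in 35.7% of all promoters of this length. No motif searched was common to both promoters.

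Other keratins were named by their level. Among the 30 other keratins, 7 reached 50 CPM in a lineage cluster, and the 6 highest are named. Of these, Krt28, Krt6a, Krt25 and Krt71 reached it in the Memo1-mutant library alone and Krt27 in Control alone, so the choice favoured the direction of their differences, which are no support for that of Krt73. Krt28, an inner root sheath type I keratin, was at 116 CPM in Memo1-mutant and 44 CPM in Control cells of cluster 5, a ratio of 2.64 (2.18 to 3.2), and in cluster 0 at 58.7 CPM in Memo1-mutant and 5.83 CPM in Control cells, a ratio of 10.1 (5.42 to 20.4). Krt6a, a keratin of the companion layer and of wounds, was at 40.1 CPM in Memo1-mutant and 6.54 CPM in Control cells of cluster 5, a ratio of 6.13 (3.94 to 9.89). Its ratio in cluster 0 was 6.61 (4.15 to 10.9). Krt42, another type I keratin, went both ways, with a ratio of 4.43 (3.15 to 6.34) in cluster 0 and 0.463 (0.344 to 0.617) in cluster 5. Over the 17 profiles, Krt28 was the keratin whose level was most like that of Krt73, with a Pearson r of 0.95, after AI593442 at 0.959.

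**Figure D5:**
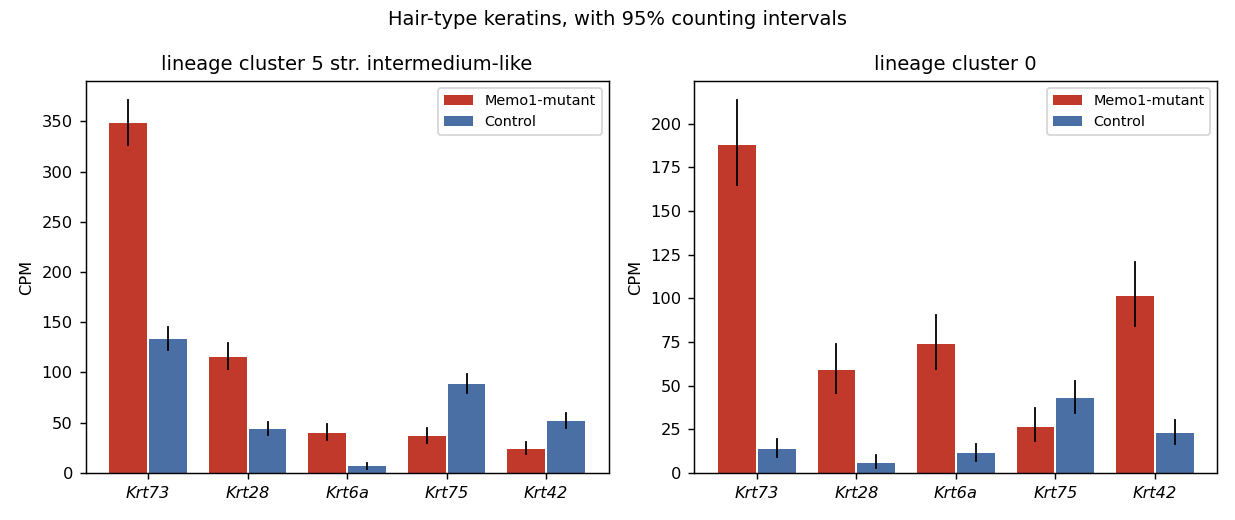
Levels in CPM of Krt73, Krt28, Krt6a, Krt75 and Krt42 in lineage cluster 5 (left panel) and cluster 0 (right panel), with Memo1-mutant in red and left of Control in blue (bars are CPM from summed counts, black lines are 95% Poisson intervals). Krt73, Krt28 and Krt6a are higher in Memo1-mutant cells in both clusters, Krt75 is lower in both, and Krt42 is higher in cluster 0 and lower in cluster 5.

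Krt27, Krt25 and Krt71 are inner root sheath keratins of hair that had their highest levels in clusters 6 and 7. Krt27 was at 12.3 CPM in Memo1-mutant and 43.6 CPM in Control cells of cluster 3, a ratio of 0.283 (0.227 to 0.351), and at 39.3 CPM in Memo1-mutant and 82.4 CPM in Control cells of cluster 6, a ratio of 0.477 (0.397 to 0.571). It was found in 52.1% of Memo1-mutant and 76.9% of Control cells of cluster 6, and no cell held over 4.21% of its counts there. In cluster 7 Krt25 was at 183 CPM in Memo1-mutant and 37.1 CPM in Control cells, a ratio of 4.93 (3.82 to 6.41), and Krt71 at 66.2 CPM in Memo1-mutant and 16.4 CPM in Control cells, a ratio of 4.04 (2.7 to 6.12). A single cell held 26.8% of the Krt25 counts in Memo1-mutant cells, and 1 cell 47.7% of those in Control cells. For Krt71, 1 cell held 32.5% of the counts in Memo1-mutant cells and 1 cell 52.6% of those in Control cells. A Krt25 UMI was found in 33.3% of Memo1-mutant and 8.02% of Control cells of that cluster. Over the whole lineage, 5 other keratins passed as higher and 3 as lower of 15 with enough counts, where 4.32% of all genes passed as higher and 3.72% as lower.

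Genes that anchor or control keratin filaments were listed apart. Of 15 genes of desmosomes, hemidesmosomes and keratin control, 14 were in the table and none passed 2-fold over the lineage, where 8.04% of all genes did. Their median log2 ratio was −0.09. In cluster 7, Evpl, which encodes envoplakin, a linker of keratins to desmosomes, was at 5.16 CPM in Memo1-mutant and 54.4 CPM in Control cells, 10.5-fold lower (4.71 to 29.3), and was the only one of the 12 genes with enough counts to pass there, where 9.98% of all genes were lower. In cluster 0 Itga6, a hemidesmosome integrin, was 3.04-fold lower (2.15 to 4.4) and Trp63, the transcription factor of basal epithelium that controls Krt5 and Krt14, 2.42-fold lower (1.96 to 3). Krt5 and Krt14 in the same cluster had ratios of 0.871 and 0.929. In cluster 3 Pkp1, a desmosome plaque protein, was at 15.6 CPM in Memo1-mutant and 6.77 CPM in Control cells, a ratio of 2.31 (1.67 to 3.23). In all, 2 of 13 genes of the list passed as lower in cluster 0, where 2.7% of all genes did, 3 of 13 as higher in cluster 3, where 5.77% did, and none in clusters 1, 2, 4, 5 and 6. Pkp1 was also among the 3 genes most like Krt5 over the profiles, with a Pearson r of 0.855, after Sfn at 0.885 and Spint1 at 0.87.

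Among the other genes most like a member, Igfbp2 had a Pearson r of 0.982 with Krt15, Pgrmc1 0.974 with Krt17, Cygb and Ctnnd2 0.959 with Krt75, Set 0.943 with Krt18, Sep15 0.856 with Krt14 and Atf3 0.826 with Krt19. The measure was log2(CPM + 10) over 17 profiles and 4962 genes. Cygb is one of the markers that named cluster 5 and Igfbp2 leads cluster 2. Of the 8 other intermediate filament genes, 3 had enough counts in the lineage and none passed, while in cluster 6 Vim was 3.12-fold (2.54 to 3.85) and Nes 2.37-fold higher (1.16 to 5.22), where 8.35% of all genes passed as higher. Mesenchyme markers, at 479 CPM in Memo1-mutant and 86 CPM in Control cells of that cluster, moved with them, and their part was not tested.

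Cluster 8, the 91 Memo1-mutant cells without a Control counterpart, held a mixture of basal and simple keratins. Its 9 keratins summed to 1712 CPM, below every other cluster of that library except cluster 3. Krt15 was at 273 CPM, with a UMI in 51.6% of cells, and Krt17 at 412 CPM. Krt5 and Krt14 were nearly balanced, at 0.904 Krt5 counts per Krt14 count (0.787 to 1.04), as in cluster 1. Krt19 and Krt75 had 0 counts and Krt73 was at 1.01 CPM. Among cells with Krt15, 85.1% also had Krt17, against 68.2% of those without.

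Outside the lineage the epithelial keratins were low, and summed over all cells Krt5, Krt14, Krt15 and Krt17 were lower in the Memo1-mutant library. These 4 passed 2-fold and no keratin passed as higher, where 5.65% of all genes passed (2.88% higher, 2.77% lower). By cluster outside the lineage, the ratios of Krt14 lay between 0.278 and 0.926 with a median of 0.47 over 18 clusters, while those of Krt17 lay between 0.289 and 1.75 with a median of 0.874. The ratios of Krt15 lay between 0 and 0.495 with a median of 0.0726 over the 14 clusters with enough counts. Of the Krt17 counts, 803 in Memo1-mutant and 2068 in Control cells came from cluster 11 alone. Krt17 was higher in clusters 0 (1.25, 1.03 to 1.52) and 10 (1.75, 1.28 to 2.44), without passing 2-fold. Its interval lay below 1 in 5 of the 18 clusters, and in 3 of these it passed as lower. Krt5 was at 16.7 CPM in Memo1-mutant and 55.8 CPM in Control cells, a ratio of 0.3 (0.282 to 0.319), Krt14 at 26.4 CPM in Memo1-mutant and 76.3 CPM in Control cells, Krt15 at 1.52 CPM in Memo1-mutant and 11.1 CPM in Control cells and Krt17 at 35.5 CPM in Memo1-mutant and 85.5 CPM in Control cells. Krt73 was at 0.911 CPM in both, but cluster 11 held 16 of its 88 counts in Memo1-mutant and 35 of its 43 counts in Control cells. By cluster outside the lineage its median was 1.16 CPM in Memo1-mutant and 0 CPM in Control cells. In the macrophage-like cluster 4, where no keratin should be made, Krt5 was at 12.5 CPM in Memo1-mutant and 41.7 CPM in Control cells. Endothelium-like cells gave Krt5 and Krt14 counts in a ratio of 0.553 in Memo1-mutant and 0.606 in Control cells, beside 0.536 in Memo1-mutant and 0.629 in Control cells of the lineage as a whole. Krt17 to Krt14 was 1.15 in Memo1-mutant and 0.697 in Control endothelium-like cells, beside 0.786 in Memo1-mutant and 1.01 in Control cells of the lineage. The lineage made up 16.7% of Memo1-mutant and 30.7% of Control cells, and the part of free RNA in these levels was not tested. The highest Krt5, Krt14 and Krt17 outside the lineage were in the cycling cluster 11, with 135, 163 and 271 CPM in Memo1-mutant and 292, 330 and 501 CPM in Control cells, where epithelium markers summed to 284 CPM in Memo1-mutant and 515 CPM in Control cells and mesenchyme markers to 8453 CPM in Memo1-mutant and 4118 CPM in Control cells.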

How the data were processed

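Single-cell libraries were made with the 10x Genomics 3′ kit, and about 10000 cells were loaded per suspension, per the labels. Per the submitters' processing notes, Cell Ranger and Seurat 3 were used with mm10, and the Cell Ranger version is not given in the sources used here. The deposited values are whole-number UMI counts per gene and cell, with the authors' cluster numbers for all cells and for the ameloblast lineage. The way lineage cells were chosen is not given in the sources used here. Deposited cells have between 501 and 49967 UMIs, no fewer than 200 genes and no more than 30.0% mitochondrial counts, with 120862385 UMIs in the Memo1-mutant and 79518656 UMIs in the Control library. The kit keeps strand, and 3′ counts do not grow with transcript length.

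Counts were summed over the cells of each cluster and library and divided by the sum of all counts (CPM). Clusters were compared where both libraries had at least 50 cells. Ratios have exact 95% conditional intervals of 2 Poisson counts, computed for all genes, and shares exact Clopper-Pearson intervals. A count of 0 allows up to 3 counts. PCR and cell sampling are not covered. Clusters were named from marker lists without keratins where at least 3 markers were 1.5-fold above the rest, their mean log2 difference was at least 1 and 1 marker was among the 10 leading genes, which held no more markers of another list, limits set after the data had been seen. 1 marker of the epithelium list is not reported here and is left out of its sums. Doublets were not called. The genes most like a keratin were the 3 with the highest Pearson r among genes with at least 50 CPM in 1 profile. Other keratins were named where they reached 50 CPM (the 6 highest), and attachment genes where their fold was among the largest with an interval that left out 1. The members and lists were chosen with earlier results of these data known. Intervals were run on simulated Poisson counts, which cannot show how they hold for counts that fall unevenly over cells. Python 3.11.15 with numpy 2.4.6, scipy 1.17.1, pandas 2.3.3 and matplotlib 3.10.9, and R 4.3.3 with edgeR 4.0.16 (TMM) and DESeq2 1.42.0 (size factors), were used.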

Additional observations from a re-analysis of the deposited data

How the results depend on the processing

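The summed level of the 9 keratins over the lineage, a ratio of 0.775, was 0.793 with TMM factors and with DESeq2's median-of-ratios factors, 0.831 with totals without enamel matrix, haemoglobin and mitochondrial transcripts, 0.741 with stricter cells, 0.795 without the 5% of cells with the most UMIs, 0.963 in cells thinned to 1000 UMIs, 1.01 as a mean of per-cell CPM and 0.909 at the Control mix of clusters. The 11 keratin and cluster pairs past 2-fold were 18 at a fold of at least 1.5 and 6 in thinned cells, of which 4 were among the 11, and between 8 and 16 in the other settings. Krt73 in cluster 0, Krt15 in cluster 1 and Krt14 in cluster 7 passed in all 11 alternatives. Among these, the fold of at least 1.5 and the lack of a count minimum only loosened the rule, so no passing pair could fail them. With stricter cells the ratio of Krt17 in lineage cluster 7 turned to 1.67 and that of Krt15 in all-cell cluster 0 to 1.44. Krt8 in all-cell cluster 11 turned to 1.19 as a mean of per-cell CPM, and Krt17 in all-cell cluster 18 to 1.19 in thinned cells. The causes were not tested.

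The Control mix, the joining of clusters 1 and 8 and the subtraction of the endothelium-like level (8 pairs past 2-fold) were chosen after seeing the data. No paired analysis was possible because each group is 1 library with no replicate number, and for the same reason no replicate could be left out. Of 72 pairs, 18 had under 20 counts, and without that minimum 16 pairs passed in place of 11.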
